A study of Mus musculus with 6 samples.

Results

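A set of 10 genes that mark the vessel wall or carry leukocytes out of the blood was followed in mouse colonic mucosa: Pecam1, Cdh5, Kdr, Vwf and Ly6c1 of the endothelium, the leukocyte adhesion receptors Icam1, Vcam1, Madcam1 and Sele, and the vasoconstrictor Edn1. They were taken by name, as every array probe whose single gene symbol was one of these, which gave 18 probes for 10 genes of the 17711 genes that had a probe of their own. Of the 10 genes, 9 were above background (detection p under 0.01) on at least 1 of 6 arrays and could be tested, 6 were above background on all arrays, and Sele was above background on none.

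The mice were of the FVB/N6 strain and 8 weeks old, and carried either wild-type alleles (WT) or a Foxo4 knockout (Foxo4_KO), the loss of a forkhead transcription factor, whose kind of allele the labels do not describe. Mice of each genotype were left untreated, received an enema of 50% ethanol, or received trinitrobenzenesulfonic acid (TNBS) in the same ethanol, labelled as 250 mg without the quantity this refers to. Tissue from the enema groups was collected on day 2. TNBS couples to tissue proteins and is used to provoke colitis, and ethanol breaks the mucosal barrier and serves as its vehicle. Each of the 6 groups was 1 pool of mucosa from 5 mice on 1 Illumina bead array, so no group had replicates, and 6 arrays in all limit how precise any value can be. Below, the values of a gene are listed in the order untreated, ethanol, TNBS, first for WT and then for Foxo4_KO, as log2 of background-corrected and quantile-normalised bead signal.

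Endothelial cells line every vessel and hold together through junction proteins such as PECAM-1 and VE-cadherin. During inflammation they display selectins, which slow passing leukocytes, and then ICAM-1, VCAM-1 or MAdCAM-1, which leukocyte integrins grip before the cells cross the wall. MAdCAM-1 is the addressin of gut venules that receives lymphocytes carrying the integrin chain Itgb7, and several of these receptors are classic targets of the transcription factor NF-kB.

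Promoters are shown for the 3 receptors whose letters held a match to the NF-kB consensus core GGNNNTTCC on either strand, since inflammatory control of these genes of leukocyte capture is commonly described through such sites. RefSeq sequences (GRCm38.p6) matched 6 of the 10 members. Each stretch runs through the 250 bases before the gene's start in the direction of transcription, with every match to GGNNNTTCC in capitals.
Icam1 (chr9:21015690-21015939, plus strand): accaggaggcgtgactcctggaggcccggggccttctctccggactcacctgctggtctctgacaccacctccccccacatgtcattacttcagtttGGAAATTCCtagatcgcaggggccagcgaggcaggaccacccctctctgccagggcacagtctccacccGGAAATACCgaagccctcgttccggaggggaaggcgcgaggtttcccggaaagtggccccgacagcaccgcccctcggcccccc
Madcam1 (chr10:79664309-79664558, plus strand): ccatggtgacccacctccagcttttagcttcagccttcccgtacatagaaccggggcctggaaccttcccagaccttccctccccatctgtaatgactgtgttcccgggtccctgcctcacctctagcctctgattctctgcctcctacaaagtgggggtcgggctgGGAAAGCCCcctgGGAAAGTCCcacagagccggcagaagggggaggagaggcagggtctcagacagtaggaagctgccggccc
Sele (chr1:164047984-164048233, plus strand): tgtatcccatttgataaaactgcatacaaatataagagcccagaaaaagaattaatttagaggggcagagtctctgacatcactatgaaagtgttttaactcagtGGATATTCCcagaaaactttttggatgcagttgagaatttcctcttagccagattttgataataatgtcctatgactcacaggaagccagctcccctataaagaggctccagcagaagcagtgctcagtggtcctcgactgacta

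The match in Icam1 that lies farthest from the start, GGAAATTCC, begins 153 bases before it and reads the same on both strands, and another, GGAAATACC, begins 84 bases before it. In Madcam1 the matches GGAAAGCCC and GGAAAGTCC stand close together, 83 and 70 bases before the start. Sele holds GGATATTCC at 145 bases. The first of the Ly6c1 starts in the table has 1 match, and none was found in the windows of Kdr or Edn1. Of all 32851 promoter windows of this length, 15.7% hold GGNNNTTCC. A looser kB decamer, which fixes only its outer G and C bases and overlaps some of these matches, was found in every one of the 6 members except Edn1 and in 45.8% of all windows. A search for TATAAA found it in Sele, 49 bases before the start, and at the other Ly6c1 start, against 7.59% of all windows.

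Mean bead signal ran from 223 to 274 per array, and 11169 to 14351 probes were above background, the most on the Foxo4_KO TNBS array. That array correlated with the others at r of 0.949 to 0.97 over probes, and the others correlated with each other at 0.974 to 0.986. The 1 Foxo4 probe was above background on 0 arrays (log2 4.42 to 4.75), so the arrays do not check the genotype labels. Colon epithelium was well represented: 10 of 11 of its listed markers were measured, with a median log2 level between 11.5 and 12.3 in every pool. Xist, the RNA of the inactive X chromosome in females, read 9.85, 5.64 and 5.51 in WT against 10.37, 5.56 and 7.52 in Foxo4_KO. Both untreated pools stood apart from the enema pools in this marker of sex. The TNBS pools also differed in it, so genotype and that difference cannot be told apart in the TNBS pair. The Y-linked Kdm5d was above background on only 1 array. In pooled tissue, more RNA of a gene per cell and more cells that carry it cannot be told apart.

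**Figure D1:**
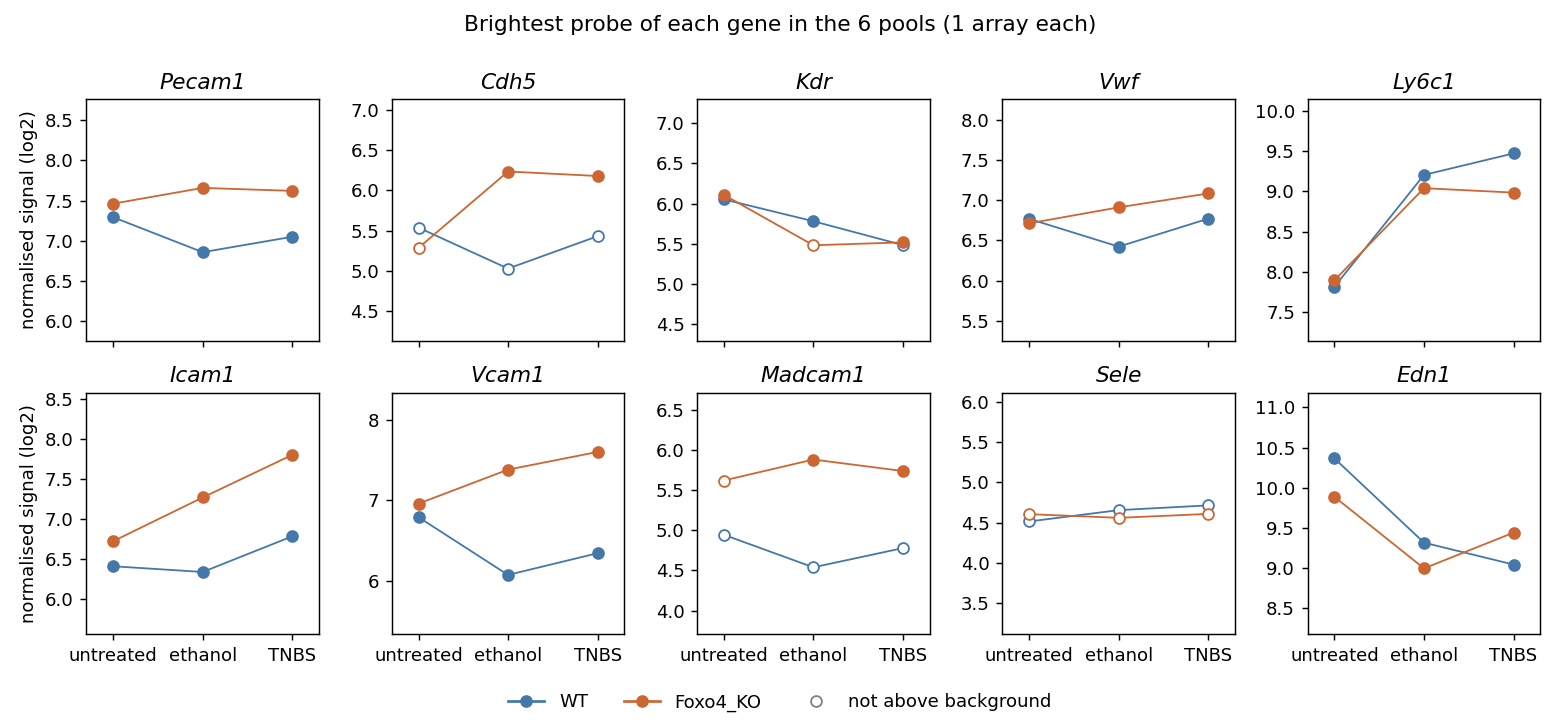
Normalised log2 signal of the brightest probe of each gene (vertical axis) in the untreated, ethanol and TNBS pools (horizontal axis), WT in blue and Foxo4_KO in orange, with 1 array per point. Open points were not above background. Vcam1 and Pecam1 have every Foxo4_KO point above every WT point, the WT points of Madcam1 are all open, Ly6c1 is higher and Edn1 lower in all enema pools than in both untreated pools, and the points of Sele are all open circles.

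The first comparison asked how the vessel and adhesion genes differ in mucosa without Foxo4. Of the 6 genes above background on all arrays, Vcam1, Icam1 and Pecam1 were higher in Foxo4_KO in all 3 pairs of pools that shared a treatment, by 0.51 to 0.91 (log2) in the fit over all pools. None of the 9 passed an adjusted p of 0.05 (limma with treatment and genotype as terms, Benjamini-Hochberg over 8953 genes), a threshold that 0.134% of all genes passed. The counts that follow keep to members above background on all arrays, set against the 6648 genes of that kind, because Madcam1 and Cdh5 could be tested only through Foxo4_KO pools. The members and the gene lists below were chosen with earlier results of these data known. Counts and medians here and below therefore describe the sets and are no test of them. At an unadjusted p under 0.05, 3 of 6 members differed, all higher, against 4.06% of genes higher and 8.3% in either direction. Being higher in every pair held for 3 of 6 members and 11.5% of genes, and having all Foxo4_KO pools above all WT pools held for 2 of 6 (Vcam1, Pecam1) and 4.71% of genes. In the other direction, 0 of 6 members were lower in every pair, against 19.7% of genes, and 0 of 6 had all Foxo4_KO pools below all WT pools, against 8.27%. The median of the 6 members was 0.38 and that of the 6648 genes -0.04.

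Vcam1 encodes the endothelial receptor of the integrin that contains Itga4. Its brightest probe, the only 1 of 5 above background, read 6.79, 6.07 and 6.34 in WT against 6.96, 7.38 and 7.60 in Foxo4_KO. Another probe designed on the same RefSeq transcript was never above background (4.56 to 4.95), so the Vcam1 values rest on 1 probe. The genotypes nearly met without treatment and stood well apart after either enema. The pairs differed by 0.17 (untreated), 1.31 (ethanol, 2.48-fold) and 1.26 (TNBS, 2.39-fold), and the fit gave 0.91 (SE 0.25, limma adjusted p = 0.309).

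Icam1, the receptor of the beta-2 integrins of neutrophils, monocytes and T cells, read 6.41, 6.34 and 6.79 in WT against 6.72, 7.27 and 7.80 in Foxo4_KO. The Foxo4_KO TNBS pool was the highest of the 6, and the untreated Foxo4_KO pool lay below the WT TNBS pool, so the genotypes overlapped. Pair differences were 0.31, 0.93 and 1.01, and the fitted difference was 0.75 (SE 0.178, limma adjusted p = 0.246).

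Madcam1, the gut addressin, was dim: 4.94, 4.54 and 4.78 in WT against 5.62, 5.88 and 5.74 in Foxo4_KO, with only the Foxo4_KO ethanol and TNBS pools above background. Since no WT pool was above background, the ethanol pair supports at least 1.08-fold higher in Foxo4_KO, the TNBS pair supports no bound above 1, and the untreated pair gives none. The fit on measured signal gave 0.99 (SE 0.166, limma adjusted p = 0.129), a value that rests on WT signal at background and on a gene measured only in Foxo4_KO. With each array scaled to a common median in place of quantile normalisation, Madcam1 passed the threshold (1.04, limma adjusted p = 0.033). That pass rests on the same WT signal at background and gives no support. The scaling also left the median of all genes at 0.37 in the TNBS genotype pair (Foxo4_KO minus WT).

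Sele, the endothelial selectin that cytokines switch on, read 4.51 to 4.71 in WT and 4.56 to 4.61 in Foxo4_KO, and none of these arrays showed it above background. Its level is therefore only bounded from above on these arrays, by the dimmest probe called above background, which ran from 5.38 to 5.92 (log2) per array.

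Among the genes of endothelial identity, Pecam1, the junction protein CD31 that also sits on platelets and leukocytes, had 3 probes. The brightest read 7.29, 6.86 and 7.05 in WT against 7.46, 7.66 and 7.62 in Foxo4_KO. Every Foxo4_KO value was above every WT value, with pair differences of 0.17, 0.80 and 0.57 and a fitted difference of 0.51 (SE 0.163, limma adjusted p = 0.368). A dimmer Pecam1 probe, above background on 3 of 6 arrays, read 5.62, 5.04 and 5.36 in WT against 5.39, 5.75 and 5.68 in Foxo4_KO. In each genotype pair only 1 of its pools was above background and no bound could be given, so it gives no direction to set beside the brightest probe. The third probe was never above background.

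Cdh5, VE-cadherin of the endothelial junction, read 5.54, 5.03 and 5.43 in WT against 5.28, 6.23 and 6.18 in Foxo4_KO. Only the Foxo4_KO ethanol and TNBS pools were above background, and the untreated pair, with neither pool above background, gives no fold. Foxo4_KO was at least 1.38-fold higher in the ethanol pair and at least 1.2-fold higher in the TNBS pair. The fit on measured signal gave 0.57 (SE 0.28, limma adjusted p = 0.575), and it was 0.249 when 1 ethanol pool of either genotype was left out and 0.979 when 1 untreated pool was.

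Vwf, the clotting glycoprotein of endothelium and platelets, read 6.77, 6.42 and 6.77 in WT against 6.71, 6.91 and 7.08 in Foxo4_KO on its brightest probe. Its other probe was never above background (4.40 to 4.49). The pairs differed by -0.06, 0.49 and 0.32, and the fit by 0.25 (SE 0.154, limma adjusted p = 0.647, 0.129 with 1 ethanol pool left out and 0.402 with 1 untreated pool left out). Kdr, the main receptor of VEGF, was not higher in Foxo4_KO in the fit (-0.07, SE 0.139, limma adjusted p = 0.903), with 6.05, 5.78 and 5.48 in WT against 6.11, 5.48 and 5.52 in Foxo4_KO. The Kdr values come from a probe designed on a cDNA clone and above background on 4 arrays, while the probe designed on the RefSeq transcript was never above background (4.49 to 4.87). The 2 Kdr probes therefore do not give 1 answer on the level of the gene.

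Ly6c1, a surface protein of endothelium and of some leukocytes, and Edn1 did not keep 1 sign over the genotype pairs. Ly6c1 differed by 0.08, -0.17 and -0.49, and Edn1 by -0.48, -0.32 and 0.40. Their fitted genotype differences were -0.19 (SE 0.155) and -0.13 (SE 0.199), with limma adjusted p of 0.73 and 0.871.

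**Figure D2:**
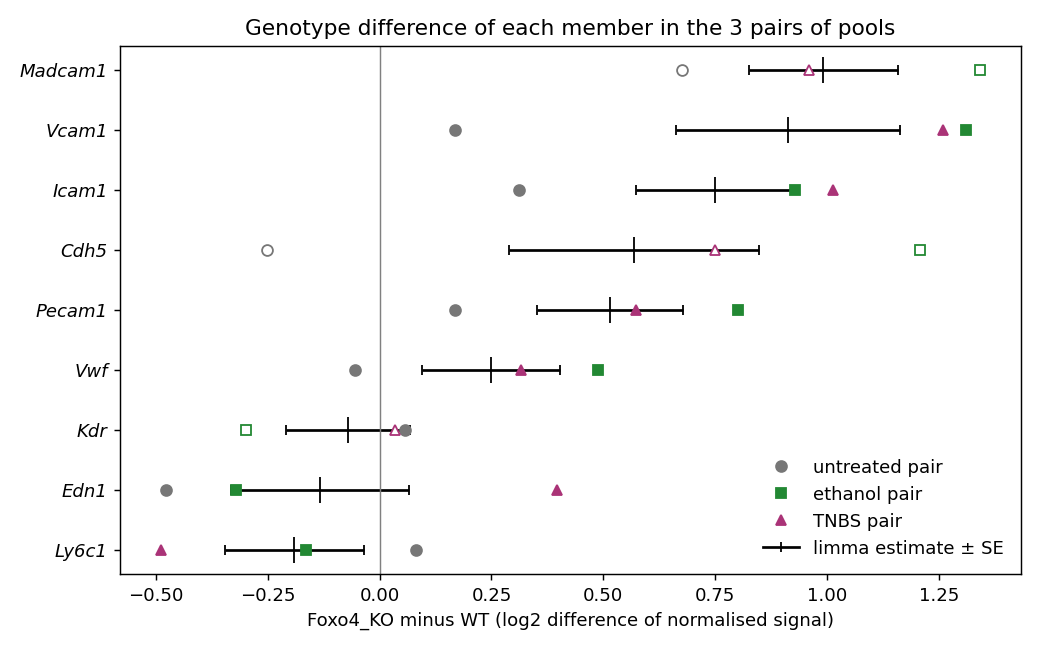
Foxo4_KO minus WT in log2 units (horizontal axis) for the 9 measured members (vertical axis). Circles, squares and triangles are the untreated, ethanol and TNBS pairs of pools, and the black bars are the limma estimate with its SE. Open symbols have at least 1 pool not above background. Vcam1, Icam1 and Pecam1 lie right of 0 in all pairs, and for Vcam1 the enema pairs (1.31 and 1.26) lie far from the untreated pair (0.17).

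The median genotype difference of the members was smaller in the untreated pair than in the enema pairs. In the untreated pair the median of the 6 members above background throughout was 0.12, and 0 of 7 members above background in either pool were 2-fold apart (1.15% of genes were 2-fold higher and 0.594% lower). In the ethanol pair the median was 0.65, and 1 of 6 members above background in both pools, Vcam1, was at least 2-fold higher in Foxo4_KO, against 2.14% of such genes. By measured signal Cdh5 and Madcam1 also passed 2-fold (3 of 9, against 4.14% of genes above background in either pool), but their bounds were 1.38-fold and 1.08-fold, and 0 members were 2-fold lower (0.65%). In the TNBS pair the median was 0.48, with Icam1 and Vcam1 past 2-fold (2 of 9, against 3.23% of genes), both above background in both pools (1.93% of such genes), and 0 lower (1.23%). Over the 6648 genes the medians of these pairs were -0.03, -0.05 and -0.03 (log2). With a larger background offset of 50, and in the authors' deposited values, which keep the background, 0 members were 2-fold apart in either enema pair. These are differences of single pools and carry no test.

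Other genes of the vessel wall also had their smallest difference in the untreated pair. Of 30 further vascular endothelial genes 20 were measured, and none of these passed the adjusted threshold (0.134% of all genes did). Among the 9 above background on all arrays, 4 were higher in Foxo4_KO in every pair and 0 lower, against 11.5% and 19.7% of the 6648 genes. The same shares stand against the counts of this kind in the lists below, which hold few genes each. The median of the 9 was 0.57 in the fit and -0.18, 0.84 and 0.99 in the untreated, ethanol and TNBS pairs. From this list and those below, the genes named are mainly the up to 3 with the largest mean genotype difference in the pairs. The size of their differences partly follows from that choice. Cd93, a glycoprotein of endothelium and myeloid cells, read 7.00, 6.66 and 6.96 in WT against 7.38, 7.83 and 8.07 in Foxo4_KO, without overlap. Ptprb, the endothelial phosphatase VE-PTP, differed by -0.29 in the untreated pair and was at least 1.35-fold and 2.85-fold higher after ethanol and TNBS, with both WT pools not above background. The VEGF receptor Flt1 differed by -0.25, 0.75 and 1.43.

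Of 7 listed genes of lymphatic vessels 6 were measured and 3 were above background on all arrays, with pair medians of 0.36, 1.06 and 0.62 over these and 2 of them, Ccl21a and Pdpn, higher in every pair. The other of the 3, the VEGF-C receptor Flt4, which the naming rule does not pick, differed by 0.36, 0.09 and -0.66. Ccl21a, the chemokine that draws lymphocytes and dendritic cells toward lymphatics and lymphoid tissue, read 6.94, 6.07 and 6.38 in WT against 7.45, 8.46 and 7.75 in Foxo4_KO. Its fitted difference was 1.42 (SE 0.342, limma adjusted p = 0.255). Pdpn, podoplanin of lymphatic endothelium and stroma, was higher by 0.66 (SE 0.178, limma adjusted p = 0.3). The matrix glycoprotein Reln was above background on 3 arrays, and Foxo4_KO was at least 1.93-fold and 1.73-fold higher in the ethanol and TNBS pairs and WT at least 1.14-fold higher in the untreated pair.

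On the leukocyte side, 7 of 13 genes listed as ligands of the members were measured. Of 5 above background on all arrays 3 (Selplg, Cd44 and Itgae) were higher in Foxo4_KO in every pair, with a median of 0.42 over the 5. Selplg, the ligand of the selectins, read 7.80, 6.81 and 7.30 in WT against 8.44, 8.40 and 8.30 in Foxo4_KO (1.08, SE 0.204, limma adjusted p = 0.155), without overlap. Itgb7, the integrin chain that binds MAdCAM-1, differed by 0.01 in the untreated pair and was at least 1.61-fold and 1.37-fold higher in the ethanol and TNBS pairs, with both WT pools not above background. Itgae, which pairs with Itgb7 on intraepithelial lymphocytes, had 0.29, 0.36 and 0.66. Itgae is a partner chain and not itself a ligand of a member, so the count of 3 and the median of 0.42 are not of ligands alone. Of the measured genes that the naming rule does not pick, Cd44 (0.418) and Itgb1 (0.184) were higher in Foxo4_KO in the fit. Glg1 (-0.109) and Spn (-0.092) were lower. Both T and NK cell markers above background on all arrays were higher in every pair (2 of 4 measured, median 0.95), as were both such B and plasma cell markers (2 of 5 measured).

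Of 17 other genes of vascular adhesion and transmigration 14 were measured, and of 6 above background on all arrays 0 were higher and 1 lower in every pair, with a median of 0.12. F11r, the junctional adhesion molecule A of endothelium, epithelium and leukocytes, was the nearest to the threshold, at 5.86, 5.82 and 5.70 in WT against 6.76, 7.14 and 6.97 in Foxo4_KO (1.16, SE 0.145, limma adjusted p = 0.0717), with the WT TNBS pool not above background (at least 2.08-fold there). Glycam1, a mucin of high endothelial venules in mice, read 7.29, 4.76 and 4.97 in WT against 7.63, 6.66 and 5.51 in Foxo4_KO, higher without treatment than after an enema in both genotypes, with neither WT enema pool above background (at least 2.86-fold and 2.59-fold). Aoc3, vascular adhesion protein 1, which smooth muscle also expresses, was higher by 1.76 in the ethanol pair and by 0.20 in the TNBS pair, and differed by -0.35 in the untreated pair.

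Around these systems, 9 genes of the VEGF system were measured, and of 6 above background on all arrays 1 was higher and 1 lower in every pair (median 0.14). Nrp1, a VEGF co-receptor, was higher by 0.69 (SE 0.218, limma adjusted p = 0.367), and the vessel-destabilising Angpt2 was above background only in the Foxo4_KO TNBS pool, which gives no bound. In haemostasis 5 of 13 genes were measured, 3 of them on all arrays (median 0.09). The anticoagulant receptor Thbd was above background only after an enema in Foxo4_KO, at least 1.14-fold and 1.22-fold higher than in WT. Tissue factor F3 was lower in every pair (-0.44, SE 0.14), and the platelet chain Gp1bb differed by 0.29 (SE 0.202), with limma adjusted p of 0.368 and 0.692.

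Markers of other cell types of the wall were also higher in the Foxo4_KO enema pools. The medians that follow are over markers above background on all arrays. Smooth muscle markers (7 of 12 listed) had a median genotype difference of -0.06, 2.32 and 1.01 in the untreated, ethanol and TNBS pairs, and the 9 measured had median levels of 7.50, 7.33 and 7.97 in WT against 7.36, 9.98 and 8.94 in Foxo4_KO. Fibroblast markers (6 of 9) differed by -0.07, 1.21 and 1.03, and 1 of 6 pericyte markers was above background throughout. Endothelial markers (5 of 10, with Tie1 and Tek not above background on any array) differed by -0.18, 0.79 and 0.79. These were the member Pecam1 with Esam, Emcn, Egfl7 and Robo4, which are also among the vascular endothelial genes above. Their median is therefore no separate result. Haemoglobin and erythrocyte markers (3 of 8) differed by -0.79, 1.42 and 1.01, and those of monocytes and macrophages (5 of 12) by 0.25, 0.96 and 0.63. Colon epithelium markers (10 of 11) differed by 0.00, 0.00 and -0.24. The part of these cell types in the vessel and adhesion genes was not tested.

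**Figure D3:**
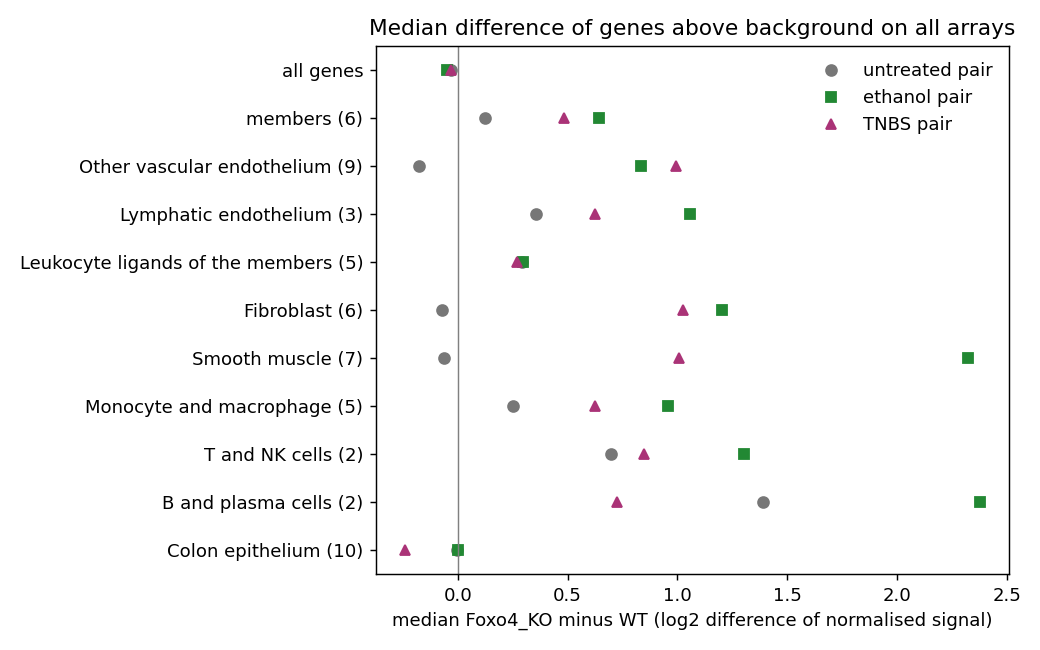
Median Foxo4_KO minus WT difference in log2 units (horizontal axis) of each gene list in the untreated (circles), ethanol (squares) and TNBS (triangles) pairs, over genes above background on all arrays, whose number is in brackets. The 6 members (0.12, 0.65 and 0.48) and 9 other vascular endothelial genes (-0.18, 0.84 and 0.99) lie below smooth muscle (2.32) in the ethanol pair, and epithelium lies near or below 0.

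The second comparison asked what the ethanol vehicle did by itself. Ly6c1 was higher and Edn1 and Kdr were lower after ethanol in both genotypes, and no other measured member had a fitted unadjusted p under 0.05. None of the 9 members passed the adjusted threshold in limma, and 0.0% of all genes did, while 2 of 6 members above background on all arrays (Ly6c1, Edn1), against 3.38% of such genes, had an unadjusted p under 0.05. In WT, Ly6c1 was the 1 member of 7 at least 2-fold higher (0.73% of genes) and Edn1 the 1 at least 2-fold lower (0.681%). In Foxo4_KO, Ly6c1 was the 1 of 9 at least 2-fold higher (1.69%), and 0 were 2-fold lower (0.29%).

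Ly6c1 read 7.81, 9.21 and 9.47 in WT against 7.90, 9.04 and 8.99 in Foxo4_KO. All 4 enema pools were above both untreated pools, as for 9.22% of genes above background throughout, and the ethanol pools exceeded the untreated by 1.39 in WT and 1.15 in Foxo4_KO. It was 1 of 13 genes (0.145%) at least 2-fold higher after ethanol in both genotypes. The fitted difference was 1.27 (SE 0.19, 2.41-fold, limma adjusted p = 0.568), the 8th lowest p of 8953 genes. Of the other Ly6 genes 3 of 10 were measured. Ly6d, a surface protein of keratinocytes and lymphoid cells, read 6.32, 8.60 and 8.48 in WT against 6.89, 8.87 and 8.26 in Foxo4_KO, also higher in all enema pools than in both untreated pools. The interferon-inducible Ly6e (10.87, 10.91 and 11.22 in WT, 11.59, 11.73 and 11.77 in Foxo4_KO) separated the genotypes and not the enemas, and the nicotinic receptor modulator Lynx1 was also higher in all enema pools, at 7.24 to 7.40 against 7.04 and 6.97.

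Edn1, the precursor of the vasoconstrictor endothelin-1, which epithelial cells make as well as endothelium, read 10.37, 9.32 and 9.04 in WT against 9.89, 8.997 and 9.44 in Foxo4_KO. Each enema pool was below both untreated pools, which held for 1 of 6 members above background throughout and for 8.71% of such genes, and for Kdr as well, 2 of whose enema pools were not above background. Ethanol differed from untreated by -1.05 in WT and -0.89 in Foxo4_KO, and the fit gave -0.97 (SE 0.244, 1.96-fold lower, limma adjusted p = 0.999), the 15th lowest difference of 8953. Kdr differed by -0.45 in the fit (SE 0.17, limma adjusted p = 0.999).

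The other 4 of 6 endothelin genes measured did not share the pattern of Edn1, and none had an unadjusted p under 0.05 for ethanol. Edn2, a related peptide made by gut epithelium, read 9.04, 9.24 and 9.20 in WT against 8.71, 8.22 and 8.66 in Foxo4_KO, lower in Foxo4_KO in every pair (-0.63, SE 0.171, limma adjusted p = 0.306). The receptor Ednrb was highest in the Foxo4_KO TNBS pool, at 8.05, against 6.33 to 7.13 in WT. Ece2, of the endothelin-converting enzyme family, ranged from 6.47 to 6.91.

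The untreated pools differed from every enema pool in Xist (9.85 and 10.37 against 5.51 to 7.52), so enema and that difference cannot be told apart for Ly6c1, Edn1 and Kdr. Over markers above background throughout, those of T and NK cells had a median ethanol difference of -0.95 in WT and -0.34 in Foxo4_KO, and erythrocyte markers differed by -2.32 in WT and -0.03 in Foxo4_KO. Their part in the ethanol values was not tested.

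**Figure D4:**
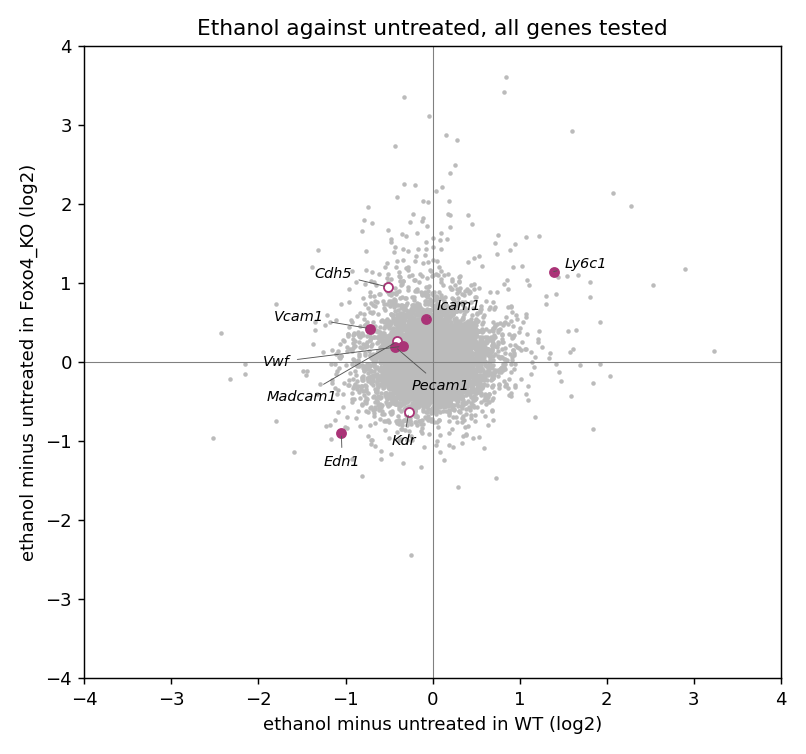
Ethanol minus untreated (log2) in WT (horizontal axis) and in Foxo4_KO (vertical axis), with each tested gene as a grey point and the 9 members in purple, open where a pool was not above background, each value from 1 pool against 1 pool. Ly6c1 lies in the upper right, at 1.39 and 1.15, Edn1 in the lower left, at -1.05 and -0.89, and Vcam1 and, as open points, Cdh5 and Madcam1 in the upper left, while 4 genes fall outside the axes.

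For several of the remaining vessel genes the ethanol difference had opposite signs in the 2 genotypes. Of the 6 members above background on all arrays, 1 was higher after ethanol in WT (Ly6c1), against 50.3% of such genes, and 5 were in Foxo4_KO, all but Edn1, against 48.0%. Their median difference was -0.39 in WT and 0.31 in Foxo4_KO, against 0.00 and -0.01 for the 6648 genes. Vcam1 differed by -0.72 in WT and 0.42 in Foxo4_KO, and Pecam1 by -0.44 and 0.20. Cdh5 differed by -0.51 in WT, where neither pool was above background, and was at least 1.32-fold higher after ethanol in Foxo4_KO. With 1 pool per group these response differences have no test. They are made of the same pools as the untreated and ethanol genotype pairs above, and restate how those pairs differ. In the same pools the median difference, over genes above background throughout, was -0.35 in WT and 0.50 in Foxo4_KO for 9 other vascular endothelial genes, -0.47 and 0.96 for 6 fibroblast markers, and -0.17 and 2.40 for 7 smooth muscle markers. The part of those cells was not tested.

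The third comparison set TNBS against its vehicle, on the ethanol pools that also served above. No member passed the adjusted threshold in limma, which 0.179% of all genes passed, and 0 of 6 members above background on all arrays had an unadjusted p under 0.05, against 5.17% of such genes. No member was 2-fold apart between the TNBS and ethanol pools of either genotype, where 1.27% of genes in WT and 2.52% in Foxo4_KO were at least 2-fold higher and 0.134% and 1.61% lower. Icam1 came nearest, higher by 0.44 in WT and 0.53 in Foxo4_KO (fit 0.49, SE 0.217, limma adjusted p = 0.782). Edn1 differed by -0.27 in WT and 0.45 in Foxo4_KO. Neutrophil markers (5 of 11 measured, 0 on all arrays) had a median level of 5.54 and 6.09 in the ethanol and TNBS pools of WT and of 4.88 and 8.40 in those of Foxo4_KO, so the Foxo4_KO TNBS pool with the highest Icam1 also had the highest neutrophil markers. The part of those cells in the Icam1 value was not tested. Small intestine markers above background throughout (2 of 4) had a median TNBS minus ethanol difference of 2.59 in WT and 2.49 in Foxo4_KO. These 2 were unlike, with 4.965 and 4.427 for Fabp6 against 0.214 and 0.557 for Rbp2. On measured signal Defa24 (4.274 and 5.444) and Lyz1 (3.3 and 4.161), above background on 4 arrays, were also higher. The adipose marker Adipoq, the 1 of 5 above background throughout, was higher by 2.051 in WT and 1.814 in Foxo4_KO. Limma adjusted p for TNBS minus ethanol was 0.0253 for Adipoq, 0.0365 for Fabp6, 0.0131 for Defa24 and 0.0169 for Lyz1. The part of these tissues in the member values was not tested.

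Against the untreated pools, which the ethanol comparison shares, the TNBS pools gave no called member, with 0.346% of all genes called, and 3 of 6 members above background on all arrays (Icam1, Ly6c1, Edn1) had an unadjusted p under 0.05, against 10.6% of such genes. Ly6c1 was higher by 1.38 (SE 0.19, limma adjusted p = 0.0818), and passed the threshold under the offset of 50, median scaling and another variance prior. Icam1 was higher by 0.72 (SE 0.217, limma adjusted p = 0.331), made of 0.37 in WT and 1.07 in Foxo4_KO, and was 0.394 without the untreated Foxo4_KO pool. Edn1 was lower by a difference of -0.88 (SE 0.244) and Kdr by -0.58 (SE 0.17), with limma adjusted p of 0.316 and 0.328. Without the WT TNBS pool the Edn1 difference was -0.484.

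Over the 6 pools the members fell into patterns that can be described by correlation, with pools that share genotype and treatment and so no test, and with Madcam1, Cdh5 and Kdr partly at background. Vcam1 and Pecam1 had r = 0.978, Pecam1 and Madcam1 0.97, and Vcam1 and Madcam1 0.937. Cdh5 and Vwf had r = 0.907, and Icam1 and Vwf 0.886. Kdr did not run with the other endothelial genes (r = -0.13 with Pecam1 and -0.577 with Cdh5) but with Edn1 (0.872), and both ran opposite to Ly6c1 (-0.888 and -0.921).

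Among 4992 tested genes that spanned at least 0.5 (log2) over the pools, the 3 most like each member were named. For Vcam1 these were Nrp1 (r = 0.987), the haematopoietic and endothelial factor Gata2 (0.984) and Oas1c (0.983). For Pecam1 they were Nckap1l, a cytoskeletal regulator of blood cells (0.996), Arhgef6 (0.992) and the lymphocyte signalling regulator Rgs1 (0.988). Icam1 was most like Gli3 (0.993), the basement membrane collagen Col18a1 (0.992) and the complement factor Cfp (0.986), and 178 genes had r above 0.9 with it.

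Vwf was most like Ltc4s (0.99), Etv1 (0.978) and the endothelial sialomucin Emcn (0.977). Ly6c1 was most like the glutathione transferase Gstp3 (0.979), Ddx18 (0.977) and Tead2 (0.969), Edn1 like Rad51d (0.978), Pgap4 (0.968) and Gper1 (0.965), and Kdr like Hoxd4 (0.995), Aspg (0.971) and Ablim1 (0.961). With 6 pools, 29 (Kdr) to 178 (Icam1) genes exceeded r of 0.9 with a member, so the order within these names is loose. Several of the genes named were themselves near background, with Gli3, Oas1c and Etv1 above it on 1 array, Gata2 and Gper1 on 2 and Rgs1 and Ltc4s on 3, so their likeness rests largely on background signal.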

How the data were processed

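Members and lists were chosen with earlier results of these data known. Per the labels, Trizol-extracted, column-cleaned RNA was amplified to biotin-labelled cRNA; the scanner, its software and the build were not given in the sources used here. Mean bead signal was deposited in an unnormalised table as intensity without background subtraction, and beside it, per the file headers, a detection p-value, which rose with the signal (Spearman 0.997 to 0.998 over probes) and was taken as 1 minus p. Normalised intensity, background included and with probe identifiers, filled the other table of the authors. Rows were joined by signal profile over the 6 arrays (46611 of 46632 probes, largest distance 0.2 log2, second match at least 2 times farther). As a check, 3288 of 3288 clone accessions and 2400 of 2538 Entrez numbers matched. Symbols came from the platform annotation: 29976 probes had 1, 10 several and 16646 none.

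Signals were background-corrected from detection p and quantile-normalised with neqc (offset 16) in limma 3.58.1 (R 4.3.3). Genes above background (p under 0.01) on at least 1 array were represented by their brightest probe (8953 genes). The additive limma fit of treatment and genotype left 2 residual degrees of freedom (prior 3.8, prior SD 0.183), and its residuals include any difference in response between genotypes. The fit was tested on simulated data with a constant genotype shift and no treatment effect or response difference. That setting is simpler than these pools. P-values are two-sided, and since each group is 1 pool, they measure the spread between pools across treatments or genotypes, not between mice. A fold against a pool below background is given as "at least", from the bright level over the higher of the dim probe and that array's dimmest probe above background, and the 2-fold counts use measured signal. Counts and medians over genes above background on all arrays were added after seeing the data. Named genes were the members, the 3 genes most like each member above background on 3 or more arrays, and up to 3 genes per list with the largest mean genotype difference in the pairs. Alternatives were an offset of 50, the authors' values, median scaling, other detection filters, all probes, a trended robust prior, fits without the other factor and leaving out each pool. Tables and figures used Python 3.11.15 with matplotlib 3.10.9, scipy 1.17.1, pandas 2.3.3 and numpy 2.4.6.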

Additional observations from a re-analysis of the deposited data

Results flagged for a closer look

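Responses that went in opposite directions in the 2 genotypes, by at least 0.2 (log2) in each, were found for 4 members, from 1 pool per group, so none of these differences was tested. Each restates how 2 of the genotype pairs above differ and is no separate result. For ethanol minus untreated, the Foxo4_KO response exceeded the WT response by 1.141 for Vcam1 (-0.72 in WT, 0.42 in Foxo4_KO), by 1.459 for Cdh5 (-0.51 and 0.95) and by 0.666 for Madcam1 (-0.41 and 0.26). Cdh5 and Madcam1 were not above background in either untreated pool nor in the WT ethanol pool, so their WT responses are differences between signals at background. For TNBS minus ethanol, the Foxo4_KO response of Edn1 exceeded that of WT by 0.718 (-0.27 and 0.45), with all 4 pools above background.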

How the results depend on the processing

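Among the limits, 6 pools without replicates and 2 residual degrees of freedom leave wide errors, so an absent call does not show that a member did not differ, and Madcam1, Cdh5 and Kdr were at background in several pools. Icam1, Vcam1 and Pecam1 were higher in Foxo4_KO in every pair under the main settings, the offset of 50, the authors' values and median scaling. With genes above background on at least 1 array, the filter of the fit, 4 of 9 members were higher in every pair in place of 3 of 6. Both counts were added after seeing the data. The added member was Madcam1, with neither untreated pool above background. The share of all genes was not counted with that filter, so 4 of 9 is not read as a result about the members. Median scaling put the median of all genes at 0.37 in the TNBS genotype pair and at -0.14 in the untreated one. Under it 1 member was called for genotype (Madcam1) and 5 were 2-fold apart in the TNBS pair. The share of all genes under median scaling was not counted, so its counts here are not read as results about the members. For TNBS minus untreated, 1 member (Ly6c1) was called under the offset of 50 (adjusted p = 0.0461), median scaling (0.00447) and the trended robust prior (0.0355), the range over all alternatives in limma being 0.00447 to 0.461. Genotype adjusted p ranged from 0.033 to 0.487 for Madcam1, 0.105 to 0.685 for Icam1 and 0.0849 to 0.747 for Vcam1. In the ethanol genotype pair 0 members were 2-fold apart with the offset of 50, 0 with the authors' values and 1 (Vcam1) among genes above background in both pools; in the TNBS pair the first pair of settings gave 0 and 0. For ethanol minus untreated in Foxo4_KO, median scaling gave 2. The offset and the authors' retained background shrink differences of dim probes by construction, and the cause of the other shifts was not tested. Kdr for genotype changed sign under median scaling (0.004). Leaving out 1 pool at a time called 0 members, and changed the sign of Kdr (-0.133 to 0.045) and Edn1 (-0.399 to 0.038) for genotype, of Icam1 for ethanol minus untreated (-0.093 to 0.566), and of Ly6c1 (-0.117 to 0.329), Kdr (-0.302 to 0.042) and Edn1 (-0.311 to 0.485) for TNBS minus ethanol. The genotype difference ranged over these fits from 0.714 to 1.285 for Vcam1, 0.619 to 0.97 for Icam1, 0.37 to 0.686 for Pecam1, 0.817 to 1.15 for Madcam1, 0.249 to 0.979 for Cdh5 and 0.129 to 0.402 for Vwf, each highest without the untreated pools. For TNBS minus untreated the range was -1.281 to -0.484 for Edn1 and 0.394 to 1.053 for Icam1. No paired analysis was possible because the labels' numbers count arrays and pair no mice or pools, beyond the match by treatment that the fit already holds.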
